A study of Homo sapiens with 6 samples.

Results

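The aminoacyl-tRNA synthetases were followed in HK-2 cells, an immortalised line of human proximal tubule epithelium, after knockdown of PARP1. The members were 36 genes taken by symbol from a count table of 30403 genes, 20 for cytosolic enzymes and 16 for mitochondrial ones, and all 36 passed the filter on low counts that left 16040 genes for testing. Cells received, by lipofection, either a plasmid carrying an shRNA to PARP1 (shPARP1) or a control shRNA plasmid (shCtrl) and were harvested after 48 h, with 3 polyadenylated RNA libraries in each group and no untransfected libraries. One transfected line served as the model, and the sequence of the shRNA is not given in the sources used here. The labels do not say whether the libraries came from separate cultures, so that the p-values reflect library-to-library spread, and this spread may be technical.

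Each aminoacyl-tRNA synthetase joins 1 amino acid to its matching tRNAs and so sets the meaning of the codons. The enzymes fall into class I and class II, which have unrelated catalytic folds. Most mitochondrial enzymes are encoded by nuclear genes of their own, while GARS and KARS each encode both the cytosolic and the mitochondrial enzyme. In the cytosol a group of synthetases is held together in the multisynthetase complex by the scaffold proteins AIMP1, AIMP2 and EEF1E1. Several cytosolic synthetase genes are known targets of ATF4, the transcription factor of the amino acid response, which binds a composite element for C/EBP and ATF factors.

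That element was searched as TGATGNAA on both strands. It lay in the promoter window of 8 of the 30 members with a window in RefSeq (26.7%). Of all 27305 genes with a window, which included genes not tested here, 4.46% had it. A window runs from 250 bases before the start of a gene to 50 after it (GRCh38.p14), and where a gene had several windows, a match in any of them was counted. The 8 sites are shown because they single out the synthetases with the element of the amino acid response, whose directions are compared further on. Each is written 5′ to 3′ in the orientation of the element, with the element in capitals and 8 bases on either side.
AARS (chr16:70289678-70289701, plus strand): aacttggcTGATGCAActgcgaga
CARS (chr11:3057410-3057433, plus strand): ctagaatcTGATGCAAccgccgcc
GARS (chr7:30594837-30594860, minus strand): tcggagcaTGATGAAAtcgccgcg
IARS (chr9:92293695-92293718, plus strand): cacggaggTGATGCAAcgcgctga
MARS (chr12:57488056-57488079, minus strand): tccctcgcTGATGCAAccggaacc
NARS (chr18:57621807-57621830, minus strand): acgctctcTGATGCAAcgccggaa
TARS (chr5:33440959-33440982, minus strand): ggaccagcTGATGCAAtcgaaagg
YARS2 (chr12:32756079-32756102, minus strand): cacactgcTGATGGAAaaattaag

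PARP1 itself checked the labels. It had 26.9, 26.2 and 28.8 CPM (counts scaled to library size by TMM) in the shPARP1 libraries, against 262, 263 and 259 CPM in the shCtrl libraries. The log2 fold change was -3.26 with an SE of 0.04 (adjusted p = 1.7e-51, quasi-likelihood test of edgeR). Library totals were 29387853 to 32809303 counts in shPARP1 and 24429683 to 26269194 in shCtrl, so every knockdown library was deeper than every control library. The lowest count of any synthetase in any library was 85, for MARS2. Of 12 proximal tubule markers, 6 passed the filter, and of these 5 were called lower and 0 higher, against 28.5% of all tested genes lower. The summed level of the 12 was 804 to 824 CPM in shPARP1 and 1174 to 1202 CPM in shCtrl. The endocytic receptors LRP2 and CUBN and the phosphate carrier SLC34A1, which define the tubule in the kidney, averaged below 0.30 CPM in both groups. Summed markers lay at 11.0 to 11.4 and 13.95 to 15.45 CPM for leukocytes, at 0.227 to 0.336 and 0.308 to 0.424 CPM for endothelium and at 9.23 to 10.6 and 19.0 to 22.1 CPM for fibroblasts, each in shPARP1 and then in shCtrl, and CD3E, a T cell marker, was at or near 0. The leukocyte list was split, with CD68 called higher (log2 fold change 0.35) and CD14 lower (-1.58). The 2 tested fibroblast markers, PDGFRB (-1.49) and LUM (-0.94), were both called lower. The 5 epithelial markers summed to 1102 to 1129 CPM in shPARP1 and 932 to 951 CPM in shCtrl, with 3 called higher, among them the keratin gene KRT18 (0.59), and the cadherin gene CDH1 lower (-0.86). The part of these markers in the synthetase results was not tested.

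Synthetase transcripts moved in both directions after PARP1 knockdown, with 24 of the 36 called, against 55.7% of all tested genes. Of the 20 cytosolic members, 11 rose (55.0%), 4 fell (20.0%) and 5 did not pass the test. Of the 16 mitochondrial members, 5 rose (31.2%), 4 fell (25%) and 7 did not pass, and 3 rose without shPARP1 replicate 2. Over all tested genes 27.3% rose and 28.5% fell at the same threshold, an edgeR adjusted p under 0.05 with no minimum fold, so the mitochondrial shares lay near those of all genes. The median log2 fold change was 0.18 for the cytosolic members, 0.04 for the mitochondrial members and -0.01 for all tested genes. All changes were within 2-fold, from -0.50 for IARS2 to 0.69 for HARS. In 17 members every shPARP1 library lay above every shCtrl library and in 10 every one lay below, while this held for 29.7% and 30.4% of all tested genes.

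**Figure D1:**
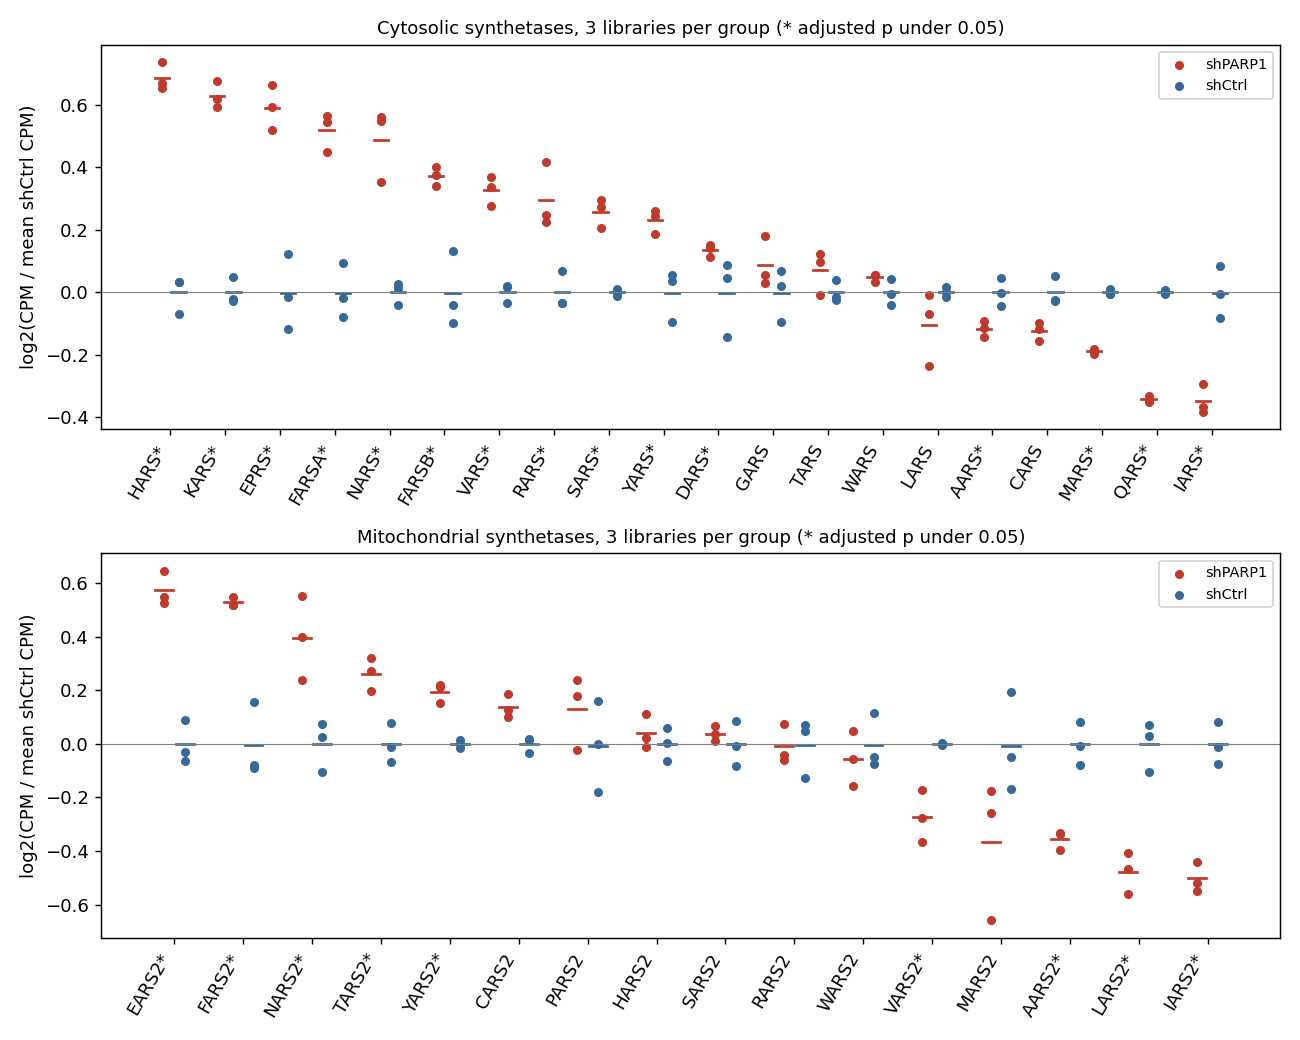
Each point is 1 library, plotted as log2 of its CPM over the mean shCtrl CPM of that gene, with the group mean as a bar, for the cytosolic (top) and the mitochondrial members (bottom) in order of fold change. The shPARP1 points of HARS, KARS, EPRS and FARSA lie well above the shCtrl points and those of IARS2, LARS2, IARS and QARS well below, with GARS, TARS, HARS2 and RARS2 overlapping.

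The summed level of the cytosolic members was 2249, 2250 and 2284 CPM in the shPARP1 libraries, against 2058, 2058 and 2043 CPM in the shCtrl libraries. The sum of the mitochondrial members was 389, 401 and 394 CPM in shPARP1, against 411, 418 and 413 CPM in shCtrl. The cytosolic total was thus higher in each knockdown library and the mitochondrial total lower in each, without overlap. GARS and KARS, which encode enzymes of both compartments, were counted in the cytosolic sum only. KARS averaged 229 CPM in shPARP1 and 148 CPM in shCtrl, so the direction of the mitochondrial total depends on this assignment. The lower mitochondrial total rested on IARS2, since the other 15 members summed to 328, 339 and 329 CPM in shPARP1, against 327, 324 and 325 CPM in shCtrl, a comparison added after the data were seen. In bulk RNA, fewer cells that express a gene and less RNA per cell cannot be told apart.

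Among the cytosolic enzymes, HARS, which charges histidyl-tRNA, showed the largest rise. HARS (chromosome 5, 140673904 to 140691862, minus strand, GENCODE 29 on GRCh38) had 84.5, 83.6 and 88.5 CPM in shPARP1, against 54.4, 54.3 and 50.6 CPM in shCtrl. All knockdown libraries lay above the controls, with a log2 fold change of 0.69 (SE 0.05, edgeR adjusted p = 6.3e-19). KARS (chromosome 16, 75627474 to 75648643), the lysyl-tRNA synthetase of both compartments, had 223, 227 and 236 CPM in shPARP1, against 153, 146 and 145 CPM in shCtrl. It rose by 0.63 on the log2 scale (SE 0.04), without overlap between the groups, and 3 processed pseudogenes named after it may share its reads. The same limit holds for all 11 members with such a pseudogene by name, which are KARS, AARS, CARS, FARSB, GARS, NARS, RARS, WARS, IARS2, TARS2 and WARS2. EPRS, a fused enzyme for glutamate and proline, had 87.9, 92.5 and 97.1 CPM in shPARP1, against 56.5, 66.9 and 60.7 CPM in shCtrl. Its log2 fold change was 0.59 (SE 0.05), and the lowest knockdown library stood above the highest control.

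The phenylalanine enzyme of the cytosol is built from an alpha subunit, FARSA, and a beta subunit, FARSB, and both rose. FARSA had 158, 155 and 146 CPM in shPARP1, against 114, 101 and 105 CPM in shCtrl (log2 fold change 0.52, SE 0.04). FARSB had 32.1, 31.4 and 32.7 CPM in shPARP1, against 23.1, 24.1 and 27.2 CPM in shCtrl (0.37, SE 0.07). Neither gene overlapped between the groups. VARS, the valine enzyme and the most abundant riser by CPM, had 291.7, 298 and 279 CPM in shPARP1, against 234, 233 and 225 CPM in shCtrl (0.33, SE 0.04). NARS (0.49), RARS (0.30), SARS (0.26), YARS (0.23) and DARS (0.13), the enzymes for asparagine, arginine, serine, tyrosine and aspartate, rose too, these values being log2 fold changes. DARS lay near the threshold (edgeR adjusted p = 0.043) and lost its call with the length and GC correction (0.09, adjusted p = 0.13), with DESeq2 (0.063), with the likelihood-ratio test (0.058) and with no filter on low counts (0.065). It also lost it without any 1 of the shPARP1 libraries (adjusted p = 0.058, 0.11 and 0.10 without replicates 1, 2 and 3) or without shCtrl replicate 1 (0.35).

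The cytosolic members that fell were enzymes for isoleucine, glutamine, methionine and alanine. QARS, the glutaminyl-tRNA synthetase, had 176, 176 and 178 CPM in shPARP1, against 225, 224 and 223 CPM in shCtrl, a log2 fold change of -0.34 (SE 0.04, edgeR adjusted p = 2.4e-12). The libraries of each group were within 3 CPM of each other. IARS, the isoleucine enzyme, had 79.0, 79.8 and 84.0 CPM in shPARP1, against 97.2, 102 and 109 CPM in shCtrl (-0.35, SE 0.045), again without overlap. MARS, the methionine enzyme, averaged 253 ± 1.49 CPM in shPARP1 and 289 ± 1.78 CPM in shCtrl (SD, n = 3 each; log2 fold change -0.19), and AARS, the alanine enzyme, 149 ± 2.73 and 161 ± 5.05 CPM (-0.12). With a correction for length and GC of the genes, the falls of MARS (-0.04, edgeR adjusted p = 0.20) and AARS (-0.03, adjusted p = 0.47) were not called, and AARS also lost its call without shPARP1 replicate 2 (adjusted p = 0.065) or shCtrl replicate 1 (0.052). Nor was AARS called by the 2 limma fits on log2 of the authors' length-scaled values (FPKM), with limma adjusted p = 0.082 and 0.087. GARS (0.09), TARS (0.07), WARS (0.05), LARS (-0.10) and CARS (-0.12) did not pass the test, and in the deposited libraries only CARS among these 5 had groups that did not overlap. YARS and WARS are of interest beside PARP1 because both proteins have been reported to associate with PARP1 in the nucleus. YARS averaged 177 ± 4.76 CPM in shPARP1 and 151 ± 8.42 CPM in shCtrl, and WARS 100.1 ± 0.95 and 96.8 ± 2.82 CPM (SD, n = 3 each). With the length and GC correction WARS was called higher (log2 fold change 0.19, edgeR adjusted p = 5.6e-06), as were GARS and TARS.

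Among the mitochondrial enzymes, the largest rise was that of EARS2, which attaches glutamate both to its own tRNA and, as the first step of glutamine charging in mitochondria, to the glutamine tRNA. EARS2 had 26.0, 27.8 and 25.6 CPM in shPARP1, against 17.4, 18.9 and 16.99 CPM in shCtrl (log2 fold change 0.57, SE 0.08, edgeR adjusted p = 3e-09). FARS2, the single-chain phenylalanine enzyme of mitochondria, had 12.5, 12.5 and 12.8 CPM in shPARP1, against 8.19, 9.71 and 8.26 CPM in shCtrl (0.53, SE 0.10). TARS2, for threonine, had 58.4, 63.5 and 61.4 CPM in shPARP1, against 50.5, 48.5 and 53.7 CPM in shCtrl (0.26, SE 0.05). In each of these genes all knockdown libraries were above the controls. NARS2 (0.40) and YARS2 (0.19) rose as well. NARS2 lost its call without shPARP1 replicate 2 (edgeR adjusted p = 0.074), and YARS2 without shPARP1 replicate 2 (0.071) or 3 (0.064) and after the length and GC correction (0.30).

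The deepest fall of any synthetase was in IARS2, the mitochondrial isoleucine enzyme (chromosome 1, 220094102 to 220148041, plus strand). IARS2 had 60.7, 61.9 and 65.4 CPM in shPARP1, against 84.2, 93.9 and 88.1 CPM in shCtrl (log2 fold change -0.50, SE 0.05, edgeR adjusted p = 6.5e-14). LARS2, for leucine, had 23.0, 24.6 and 25.6 CPM in shPARP1, against 34.6, 35.7 and 31.6 CPM in shCtrl (-0.48, SE 0.07). AARS2, for alanine, had 32.1, 32.2 and 30.8 CPM in shPARP1, against 40.4, 38.4 and 42.9 CPM in shCtrl (-0.35, SE 0.06). In these 3 genes every knockdown library was below every control library. VARS2 fell by 0.27 on the log2 scale, but not after the length and GC correction (-0.08, edgeR adjusted p = 0.28), and it shares 1858 bases of exon on the same strand with GTF2H4, which rose by 0.30. MARS2 (-0.35, SE 0.16, adjusted p = 0.059), the member with the fewest reads, CARS2 (0.14), PARS2 (0.14), HARS2 (0.04), SARS2 (0.04), RARS2 (-0.01) and WARS2 (-0.05) did not pass.

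Enzymes for the same amino acid in the cytosol and in mitochondria were set side by side in 17 pairs. In 5 pairs both members rose, in 2 both fell, in 7 only 1 was called, in 2 neither was, and in 1 pair they moved in opposite directions. Over all tested genes, taken singly, 27.3% rose and 28.5% fell. These single-gene shares cannot be set against the counts of pairs, and no share over pairs of genes was worked out. Both members rose for phenylalanine (FARSA and FARSB with FARS2), asparagine (NARS and NARS2), tyrosine (YARS and YARS2) and glutamate (EPRS and EARS2), and both fell for isoleucine (IARS and IARS2) and alanine (AARS and AARS2). The pair with opposite calls was VARS and VARS2, for valine. With the length and GC correction AARS, YARS2 and VARS2 lost their calls, leaving 1 called member in the alanine, tyrosine and valine pairs. In that fit TARS was called higher, as TARS2 was, and RARS2 was called lower, opposite to RARS. The ratio of VARS to VARS2, taken on FPKM (fragments scaled to transcript length and to library size, as the authors deposited them), was 9.70, 10.7 and 10.6 in shPARP1, against 6.92, 6.86 and 6.63 in shCtrl. Such a ratio within a library does not depend on library scaling. EPRS and FARS2 each enter 2 of the 17 pairs. With 3 libraries against 3 an exact permutation test of a ratio cannot go below p = 0.10, so the ratios are given as a description.

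**Figure D2:**
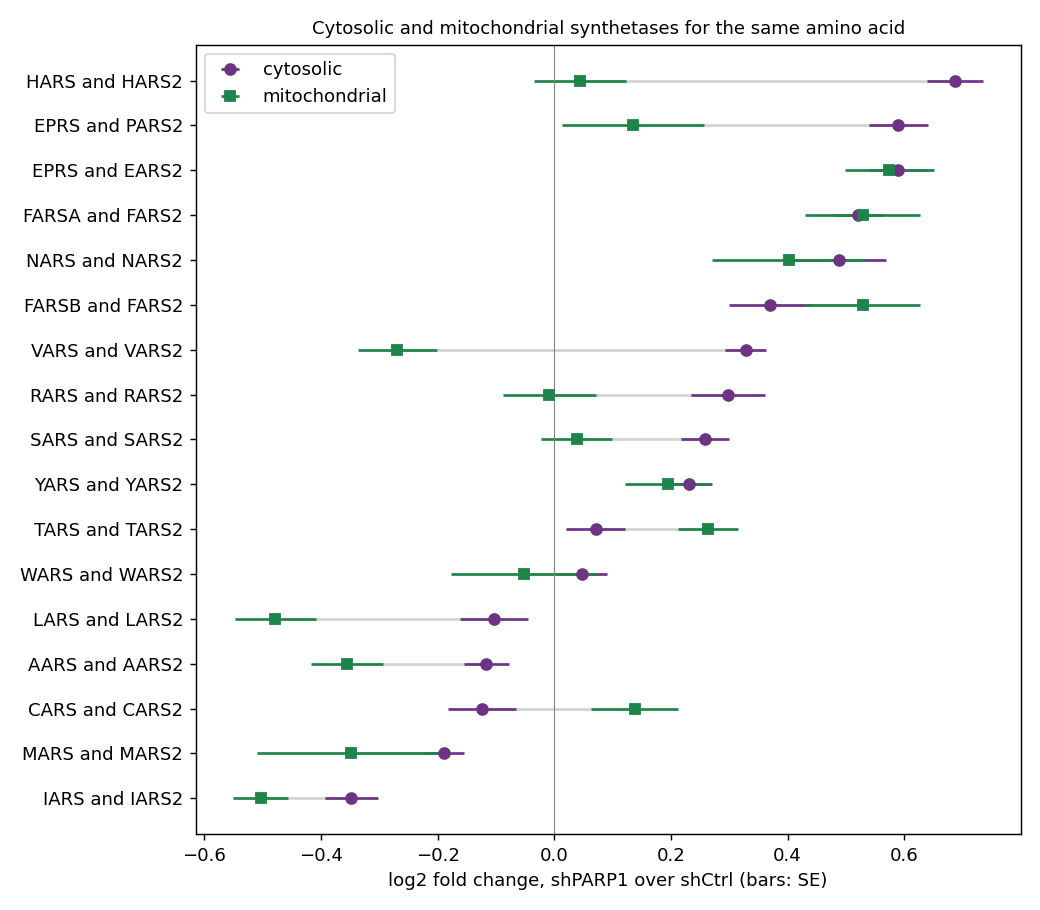
Each row is a pair of genes for the same amino acid, with the log2 fold change of shPARP1 over shCtrl and its SE for the cytosolic (circle) and the mitochondrial gene (square). The 2 symbols nearly coincide for EPRS with EARS2 and FARSA with FARS2, and lie far apart for HARS with HARS2 and for VARS with VARS2, where the mitochondrial gene was lower.

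HARS and HARS2 are neighbours that start back to back. By RefSeq, HARS starts at 140691370 on the minus strand of chromosome 5 and HARS2 at 140691455 on the plus strand, with 84 bases between them. In that stretch the ETS core CCGGAAGT occurs on both strands, just before the start of each gene. The sites are shown because the genes share them and yet differed in fold change. Each is written in the direction of the gene it precedes, with the core in capitals.
HARS (chr5:140691364-140691387, minus strand): ctcgatagCCGGAAGTcatccttg
HARS2 (chr5:140691439-140691462, plus strand): ggctcctcCCGGAAGTgccgaagc
The core begins 9 bases before the start of HARS and 8 bases before that of HARS2. CCGGAAGT was found, on either strand, in 8 of the 30 members with a window (26.7%) and in 4.95% of all 27305 genes. HARS and HARS2 were both counted among the 8, for the same sites. The cyclic AMP response element TGACGTCA was found in 0 of the 30 and in 2.25% of all genes.

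HARS2 had 21.2, 19.9 and 19.4 CPM in shPARP1, against 20.4, 19.6 and 18.7 CPM in shCtrl, overlapping groups with a log2 fold change of 0.04 (SE 0.08, edgeR adjusted p = 0.66). The FPKM ratio of HARS to HARS2 was 1.93, 2.04 and 2.20 in shPARP1, against 1.29, 1.34 and 1.31 in shCtrl, without overlap. The exons of the genes overlap by 437 bases in GENCODE 29 on opposite strands. HARS also shares 221 bases of exon on opposite strands with WDR55, which rose by 0.24 on the log2 scale. The strand setting of the counting is not given in the sources used here, so reads from these stretches may not have been separated. HARS2 also shares 152 bases of exon on the same strand with ZMAT2, which fell by 0.53.

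Of the 36 members, 11 have a protein-coding gene on the opposite strand that starts back to back with them. The limits were 1000 bases upstream or 1500 bases of overlap. Among these neighbours HARS, TERF2IP, LYRM4, MRPS12, ORC3, WDR25 and ING1 were called higher and S100PBP lower. HARS2, UBFD1 and DDX19B did not pass the test. Over all tested genes 27.3% were called higher and 28.5% lower. Exons of 17 members overlap exons on the opposite strand, and reads from such stretches may have been counted for either gene. Among the pairs below the overlap was 176 bases for KARS with TERF2IP, 370 for EARS2 with UBFD1, 396 for YARS with S100PBP, 349 for SARS2 with MRPS12, 326 for CARS2 with ING1 and 287 for WARS with WDR25, whereas FARS2 with LYRM4, RARS2 with ORC3 and AARS with DDX19B had 0. KARS, which averaged 229 CPM in shPARP1 and 148 CPM in shCtrl, and TERF2IP, a telomere protein gene, were both called higher. TERF2IP averaged 23.9 ± 2.25 CPM in shPARP1 and 14.9 ± 0.381 CPM in shCtrl (SD, n = 3 each; log2 fold change 0.68). FARS2 rose with LYRM4, an iron-sulfur cluster assembly gene (0.53 for each). SARS2 did not pass the test, whereas the mitochondrial ribosomal protein gene MRPS12 at its start rose by 0.66. SARS2 also shares 1492 bases of exon on the same strand with AC011455.2 (-0.12), which did not pass. RARS2 did not pass while ORC3, of the origin recognition complex, rose by 0.42, and WARS did not pass while WDR25 rose by 0.53. EARS2 rose while UBFD1 (-0.04, adjusted p = 0.62) did not pass. YARS rose while S100PBP fell by 0.26, and ING1, a chromatin reader gene beside CARS2, rose by 0.41. DDX19B, an RNA helicase gene beside AARS, did not pass (0.03). These values are log2 fold changes with edgeR adjusted p over all tested genes. The RefSeq starts of FARS2 and LYRM4 are separated by the stretch shown here as the example of a pair that rose together. It holds 76.8% G and C and neither TGATGNAA nor CCGGAAGT, so no capitals are set.
LYRM4 to FARS2 (chr6:5260951-5261006, plus strand): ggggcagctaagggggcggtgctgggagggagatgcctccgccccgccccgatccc

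The 8 members with TGATGNAA in their window did not share a direction. NARS and YARS2 rose, AARS, IARS and MARS fell, and CARS, GARS and TARS did not pass the test. Over all tested genes 27.3% rose and 28.5% fell, so 2 rises and 3 falls among 8 lay near these shares. With the length and GC correction YARS2, AARS and MARS lost their calls, and GARS and TARS were called higher. A match in a window describes its letters only and does not show that a factor binds there.

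By catalytic class, 7 of the 10 cytosolic class II members rose (DARS, FARSA, FARSB, HARS, KARS, NARS and SARS) and 1, AARS, fell, with a median log2 fold change of 0.31. Of the 9 cytosolic class I members 3 rose (RARS, VARS and YARS) and 3 fell (IARS, MARS and QARS), with a median of -0.10, and EPRS, which joins both classes, was left out of either count. The summed cytosolic class II level was 966, 963 and 984.5 CPM in shPARP1, against 786, 771 and 779 CPM in shCtrl. The summed cytosolic class I level was 1195, 1194 and 1203 CPM in shPARP1, against 1215.5, 1221 and 1203 CPM in shCtrl. Class II totals were therefore set apart between the groups, while class I totals nearly met. In mitochondria 3 of 7 class II members rose and 1 fell, and 2 of 9 class I members rose and 3 fell. Merged exon length had a median of 4077 bases in cytosolic class II and 7028 bases in class I, with median GC contents of 46.7% and 51.9%. With length and GC content corrected, 8 cytosolic class II members were called higher and 0 lower, and 4 class I members higher and 2 lower. That fit called 4928 of all 16040 tested genes higher and 4151 lower. Without the correction, 27.3% of all tested genes were called higher and 28.5% lower. The uncorrected shares of cytosolic class I (33.3% and 33.3%) and mitochondrial class I (22.2% and 33.3%) lay near these. The members were sorted into classes with earlier results known, and the difference between the classes was not tested.

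The multisynthetase complex holds 8 of the cytosolic members. Of these EPRS, KARS, RARS and DARS rose, QARS, IARS and MARS fell and LARS (-0.10) did not pass, while 27.3% of all tested genes rose and 28.5% fell. The summed level of the 8 was 942, 955 and 985 CPM in shPARP1, against 934, 949 and 951 CPM in shCtrl, overlapping ranges. That sum mixes rises and falls and depends on KARS, which gave 223, 227 and 236 CPM of it in shPARP1, against 153, 146 and 145 CPM in shCtrl. Of the 12 cytosolic members outside the complex, 7 rose and 1 fell, and their sum was 1307, 1295 and 1300 CPM in shPARP1, against 1124, 1110 and 1092 CPM in shCtrl, without overlap. All 3 scaffold genes of the complex rose. AIMP2 had 67.2, 62.9 and 68.1 CPM in shPARP1, against 36.6, 36.1 and 37.3 CPM in shCtrl (log2 fold change 0.85, SE 0.05, edgeR adjusted p = 6.5e-21). AIMP1 had 24.6, 24.5 and 26.0 CPM in shPARP1, against 11.9, 14.3 and 13.4 CPM in shCtrl (0.92, SE 0.08). EEF1E1 had 3.82, 4.47 and 4.06 CPM in shPARP1, against 2.13, 2.74 and 3.04 CPM in shCtrl (0.64, SE 0.17). The fold changes of AIMP1 and AIMP2 exceeded those of all 8 synthetases of the complex, and that of EEF1E1 lay beside KARS (0.63). These differences between genes were not tested.

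Per transcript length, the synthetases spanned from 0.85 FPKM for MARS2 in 1 shPARP1 library to 87.2 FPKM for MARS in 1 shCtrl library. In shPARP1 the highest were KARS (81.7, 83.6 and 86.9 FPKM) and MARS (77.9, 77.7 and 78.6 FPKM), and in shCtrl MARS (85.0, 87.2 and 86.8 FPKM) and QARS (69.9, 71.4 and 69.9 FPKM). KARS had 53.9, 52.7 and 51.6 FPKM in shCtrl, so it moved ahead of MARS and QARS in the knockdown libraries, with no overlap between KARS and MARS in either group. HARS averaged 14.9 ± 0.47 FPKM in shPARP1 and 8.99 ± 0.40 FPKM in shCtrl (SD, n = 3 each), which placed it at rank 18 of the 36 in shPARP1 and rank 23 in shCtrl. MARS2 was lowest in both groups, at 1.05 ± 0.17 and 1.30 ± 0.17 FPKM, followed by WARS2 at 1.96 ± 0.13 and NARS2 at 2.07 ± 0.23 FPKM in shPARP1. NARS2 and WARS2 overlapped in shPARP1 and were 1.40 to 1.62 and 1.87 to 2.17 FPKM in shCtrl. The median over members was 19.5 FPKM in shPARP1 and 19.2 FPKM in shCtrl for the cytosolic genes, and 6.55 and 6.84 FPKM for the mitochondrial ones.

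**Figure D3:**
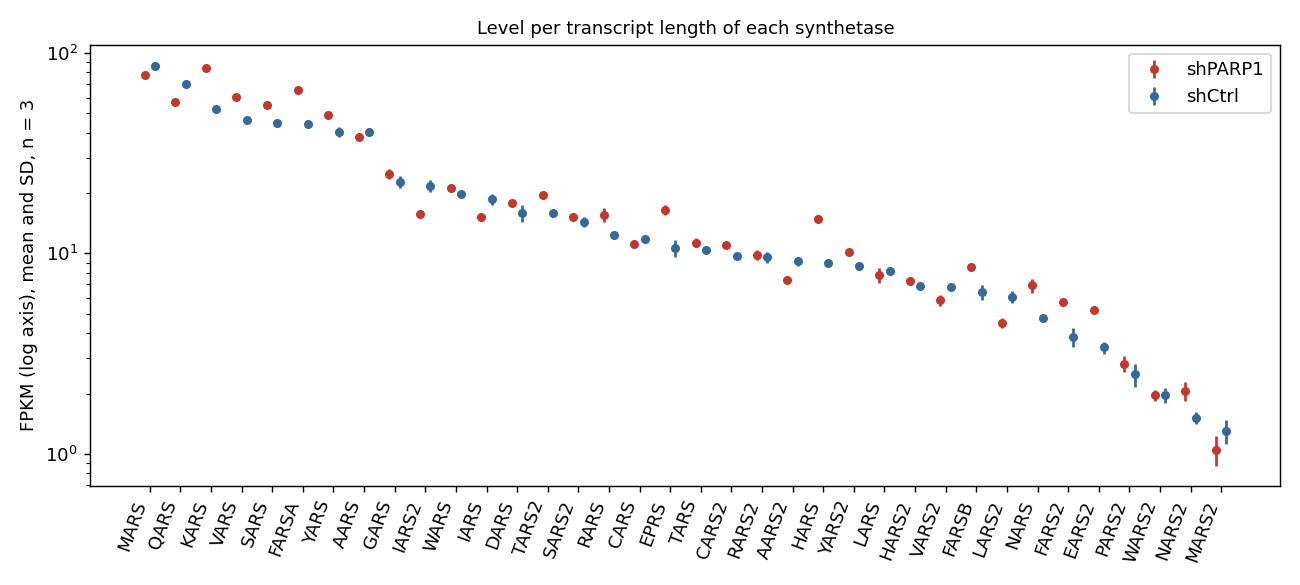
Mean FPKM of each synthetase with its SD over 3 libraries, shPARP1 left of shCtrl, on a log axis and in order of the shCtrl mean. KARS, HARS and EPRS stand above their shCtrl points and MARS, QARS and IARS2 below theirs, while MARS2 is lowest in both groups.

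Other genes of tRNA charging were taken from 5 lists, whose counts are read against the 27.3% of all tested genes that rose and the 28.5% that fell. Of the 7 genes for scaffolds of the complex and subunits of elongation factor 1, which carries charged tRNA to the ribosome, 5 rose and 0 fell (median log2 fold change 0.51). EEF1D, a guanine nucleotide exchange subunit, averaged 644 ± 5.84 CPM in shPARP1 and 453 ± 1.37 CPM in shCtrl (SD, n = 3 each; 0.51), and EEF1B2 rose by 0.10, while EEF1A1 (-0.0028) and EEF1G (-0.04), named after their values were seen, did not pass. The count of 0 falls came from edgeR, and 0 of these 7 genes were lower at an unadjusted p under 0.05 or by DESeq2 and limma-voom. After the length and GC correction 1 of the 7 was called lower.

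Among 10 genes for charging and delivery in mitochondria 5 rose and 0 fell (median 0.16). They were MTFMT (0.58), which formylates the initiator methionyl-tRNA, the elongation factors TSFM (0.37) and TUFM (0.15), the initiation factor MTIF3 (0.47) and GATB (0.35), a subunit of the amidotransferase that turns glutamate on the glutamine tRNA into glutamine. TUFM averaged 386 ± 5.56 CPM in shPARP1 and 348 ± 4.51 CPM in shCtrl (SD, n = 3 each). The partners of GATB in that enzyme, GATC (0.06) and QRSL1 (0.02), named after their values were seen, did not pass. Of 8 genes for trans-editing and selenocysteine charging 3 rose and 0 fell (median 0.18), and the share that rose, 37.5%, was near that of all tested genes. The 3 were PSTK (0.83), the kinase that converts seryl-tRNA on the path to selenocysteine, the editing protein gene AARSD1 (0.34) and EEFSEC (0.22). PSTK averaged 14.9 ± 0.38 CPM in shPARP1 and 8.35 ± 0.83 CPM in shCtrl. In this list and the mitochondrial one, 0 genes were lower by edgeR at an unadjusted p under 0.05, and 0 by DESeq2 and limma-voom. For the list of trans-editing and selenocysteine genes, 5 were called higher after the length and GC correction.

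Genes of tRNA maturation and export were called higher for 16 of 22 tested and lower for 1, with a median of 0.43, against 27.3% of all tested genes that rose. Without shCtrl replicate 1 the count was 11 and without shPARP1 replicate 1 it was 13. The list held 23 genes, and RPP21 did not pass the filter on low counts. Protein subunits of ribonucleases P and MRP, which cut the leader of precursor tRNA and process ribosomal RNA precursors, were among the rises, with POP5 (0.98), POP4 (0.62), POP7 (0.59), RPP25 (0.56) and POP1 (0.655). POP5 had 32.1, 32.5 and 33.7 CPM in shPARP1, against 18.9, 15.2 and 15.99 CPM in shCtrl. The La protein gene SSB, which binds the ends of new tRNA transcripts, rose by 0.63 and the tRNA exportin gene XPOT, named after its value was seen, fell by 0.24 with overlapping groups. XPOT was not called by the fits on log2 FPKM, where 0 members of the list were lower.

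**Figure D4:**
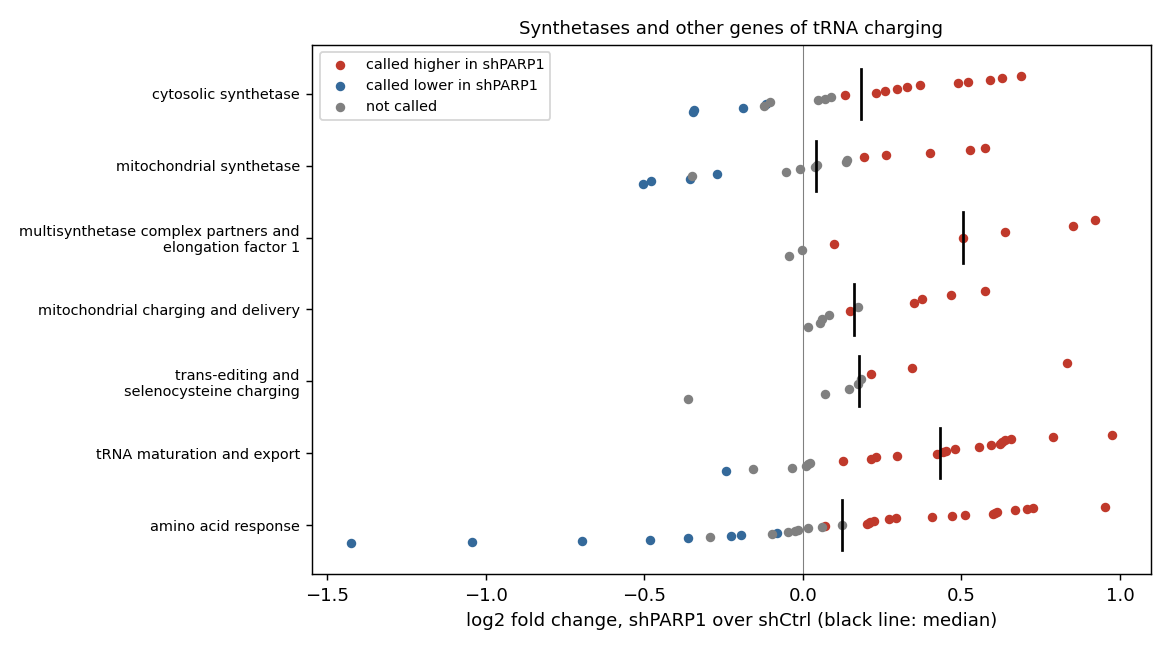
Log2 fold change of shPARP1 over shCtrl for each tested gene of the 2 synthetase groups and of 5 lists of charging genes, coloured by the edgeR call, with the median as a black line. The medians run from 0.04 for the mitochondrial synthetases to 0.51 for the complex scaffolds and elongation factor 1, and the amino acid response list reaches from -1.43 to 0.95.

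Genes of the amino acid response were split, with 17 of 33 higher (51.5%) and 8 lower (median log2 fold change 0.12), against 27.3% higher and 28.5% lower among all tested genes. The 6 with the smallest p-values were VLDLR (-1.43), a lipoprotein receptor, the neutral amino acid carrier SLC1A4 (-1.04), the pseudokinase TRIB3 (0.67), the phosphatase subunit PPP1R15A (0.60), the secreted glycoprotein STC2 (-0.48) and the translation repressor EIF4EBP1 (0.47). SLC1A4 had 54.4, 55.3 and 54.3 CPM in shPARP1, against 114, 110 and 114 CPM in shCtrl. TRIB3 had 142, 136 and 139.6 CPM in shPARP1, against 86.8, 89.7 and 86.2 CPM in shCtrl. Other genes of the list, chosen after their values were seen, were ATF4 (-0.02, edgeR adjusted p = 0.72) and the asparagine synthetase ASNS (0.12, adjusted p = 0.19), which did not pass, and the kinase gene EIF2AK4, whose product senses uncharged tRNA, which rose by 0.51. GCN1L1, also of the list and also chosen after its value was seen, fell (log2 fold change -0.23). DDIT3 rose by 0.73 and lies on the opposite strand to MARS, with 355 bases of exon in common, so that their reads may not have been separated.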

How the data were processed

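Polyadenylated RNA of 3 shPARP1 and 3 shCtrl libraries of HK-2 cells was sequenced in paired-end mode from a stranded kit, per the labels' protocols. The authors deposited raw read counts per gene and, separately, FPKM. The build was GRCh38 and the tools included TopHat2 and edgeR, per the submitters' processing notes. How reads were counted (tool, strand setting, annotation) is not given in the sources used here. Counts of all 30403 genes were tested with edgeR 4.0.16 under R 4.3.3 (filterByExpr, TMM, robust quasi-likelihood test, Benjamini-Hochberg over 16040 genes, called at adjusted p under 0.05). The test was also run on counts simulated from the means and dispersions fitted to these data. Such a run checks the code only, and cannot show that the model holds or that the libraries are independent. Alternatives used DESeq2 1.42.0, limma 3.58.1 on log2(FPKM + 1) and log2(FPKM + 0.1), other scalings and filters, thinned counts, a length and GC correction (splines on merged exon length and on the GC content of the longest transcript, GENCODE 29, 99.2% of tested genes matched), a block on replicate number, and fits without each library in turn. Library totals of 24429683 to 32809303 counts limit the precision of low genes. Library pairs within a group differed beyond sampling noise (chi-square per degree of freedom 2.54 to 4.54), so no pair was taken for 1 library, and such spread can be technical. Values in every library are given for called synthetases with an absolute log2 fold change of at least 0.5, for 3 further called ones per compartment by smallest p, and for subunit and shared-start partners. From each other list up to 6 called genes by smallest p are named. The members and lists were chosen with earlier results of these data known. Promoter sequences came from RefSeq (GRCh38.p14) by symbol, or by the symbol with 1 added (HARS1 for HARS). Neighbours and pseudogenes came from GENCODE 29, the latter by name, for 11 members.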

Additional observations from a re-analysis of the deposited data

How the results depend on the processing

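Of the 24 called synthetases, 18 kept their direction and call under all 19 alternatives, 13 higher and 5 lower. Without 1 library at a time, the counts of cytosolic members were 10 to 12 higher and 3 to 4 lower, and those of mitochondrial members 3 to 5 higher and 4 to 5 lower. By class, without 1 library at a time, 0 to 1 cytosolic class II members were lower and 1 to 2 mitochondrial class I members were higher, and among cytosolic members outside the complex 0 to 1 were lower. AARS and YARS2 account for these class changes, and the 3 mitochondrial rises left without shPARP1 replicate 2 were those other than NARS2 and YARS2. Also without 1 library at a time, 6 to 8 cytosolic and 2 to 3 mitochondrial class II members were higher. Mitochondrial class I members called lower numbered 3 to 4. In the complex 3 to 4 members were higher, and outside it 7 to 8. With the length and GC correction, 2 cytosolic members were lower, 0 of class II and 0 outside the complex, 1 gene of the scaffold and elongation factor list was lower and 5 trans-editing and selenocysteine genes were higher. On log2(FPKM + 1) and on log2(FPKM + 0.1), 0 cytosolic class II members, 0 members outside the complex and 0 tRNA maturation genes were lower, and the stricter filter on low counts gave 2 lower outside the complex. Members not called that gained a call with the length and GC correction were GARS, TARS, WARS and CARS2 (higher) and RARS2 and MARS2 (lower). Signs turned in 4 members that were not called. CARS was 0.0613 with the length and GC correction. RARS2 was 0.0228 with library totals alone, 0.0341 and 0.0373 on the log2 FPKM scales and -0.0547 to 0.0269 without 1 library. SARS2 was -0.0005 to 0.0827 and WARS2 -0.10 to 0.023 without 1 library. Genes of tRNA maturation called higher numbered 11 to 16 without 1 library. The causes were not tested.

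With the replicate number as a block, 11 cytosolic and 5 mitochondrial members were higher and 4 and 4 lower, the same counts as without it. Over all genes the calls moved to 4443 higher and 4617 lower, against 4371 and 4566 without the block, and none of the 37 single-gene results changed its call or direction. Libraries with the same number did not deviate together (correlations 0.07, -0.01 and 0.06), so the numbers were not taken to pair the samples. The share of higher among all calls was 48.9% and lay between 48.5% and 54.4% across settings.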
